A study of Mus musculus with 13 samples.

Results

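The transcripts described here had a measurable median level over libraries of haematopoietic stem cells (HSCs) of 3 reconstitution classes. They were chosen as the genes with a median of 50 CPM or more (CPM, a gene's counts per 1000000 counts of all genes in the library) over all 13 libraries. A gene need not reach that level in every class to be chosen. Of 24015 gene symbols, 4277 met this rule, and 15785 symbols had a count in at least 1 library. Shmt1 lay just inside the threshold at a median of 50.01 CPM and Bod1l just outside at 49.95 CPM. Among the 4277 genes, called members below, the steadiest and the most variable were ranked by the coefficient of variation (CV), the SD of the CPM over its mean. Levels and CVs therefore define the groups of genes that follow, and they are given as descriptions with no test.

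The study transplanted single Vwf+ HSCs from mouse marrow and followed the recipients over 16 weeks. From recipient marrow, donor-derived cells were sorted as LSK (lineage-negative, Sca-1-positive, Kit-positive), Flt3-, CD150+, CD48-, CD45.2+ and Gata1-, all on the C57BL/6 strain, and each library was made from 100 cells. There were 3 libraries of PLT-HSC (P-restricted reconstitution), 6 of PEM-HSC (PEM-restricted reconstitution) and 4 of MUL-HSC (multilineage reconstitution). All 3 classes thus share transplantation, the same sort and a Vwf+ founder cell. The labels do not say that libraries of a class came from separate recipients, so the spread between them may be technical in part, and they name no batch.

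HSCs are rare, mostly quiescent cells of the marrow that renew themselves and supply every blood lineage. Their steady work depends on the same core machinery as in other cells: ribosomes, mitochondria, proteasomes, splicing factors and the actin cytoskeleton. Other genes respond within minutes to handling or signals (immediate early genes), follow the cell cycle, or mark the state and age of the stem cell.

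The libraries held 16371921 to 41367057 reads counted on genes and detected 11233 to 12310 genes each. Members took 82.0% to 88.7% of the counts in a library. The 10 genes with the highest median CPM held 3.65% to 5.32%, the top 100 held 14.6% to 19.9% and the top 1000 held 45.9% to 55.4%. Of 45 HSC identity genes in the table, 35 were members and 2 had a median of 0. Procr, which encodes the endothelial protein C receptor, had a median of 203.5 CPM, Slamf1 (CD150) 198 CPM and Kit 356 CPM. Flt3, Cd48 and Gata1, whose products the sort excluded, had medians of 0.264, 6.47 and 6.17 CPM and reached 39.2, 59.0 and 27.6 CPM in their highest library. Flt3 had class medians of 0 CPM in PLT-HSC, 0.132 CPM in PEM-HSC and 9.70 CPM in MUL-HSC. Those of Cd48 were 6.47, 0 and 16.7 CPM in the same order, and those of Gata1 were 0.276, 5.46 and 16.6 CPM. All 3 were highest in MUL-HSC by class median, and their part in the results below was not tested. None of the 16 macrophage markers was a member, against 1 of 12 markers each for B and plasma cells, T and NK cells, and stroma and endothelium. The summed macrophage markers reached 135 to 314 CPM in PLT-HSC, 125 to 437 CPM in PEM-HSC and 60.2 to 106 CPM in MUL-HSC libraries, and their part in the results below was not tested. Of 24 erythroid genes, 15 had a median of 0 and 4 were members, with a median level of 628 CPM. The erythroid list, which includes Car2, summed to 6670 to 9297.5 CPM in PLT-HSC, 7032 to 8979 CPM in PEM-HSC and 5467 to 7057 CPM in MUL-HSC libraries.

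A pair of libraries stood apart among the variable genes. PLT-HSC replicate 1 held the highest value of 28 of the 100 members with the highest CV, and MUL-HSC replicate 1 held the lowest value of 29 of them. For the other libraries these tallies reached 12 highest values, in MUL-HSC replicate 4, and 14 lowest values, in PLT-HSC replicate 2. Over all members, Pearson's r of log2 CPM between libraries ran from 0.762 to 0.882 (median 0.847) for 24 pairs of the same class and from 0.668 to 0.874 (median 0.807) for 54 pairs of different classes. These are descriptions across genes of libraries that share a protocol.

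The 20 most abundant transcripts had median levels of 1904 to 5943 CPM. B2m, the light chain of MHC class I, led with a median of 5943 CPM, followed by Car2 (carbonic anhydrase 2) at 5800.3 CPM, Ftl1 (ferritin light chain) at 4745 CPM and H2-K1, an MHC class I heavy chain, at 4481 CPM. Cnbp, a zinc finger protein that binds nucleic acids, stood at 4007 CPM. Next came the membrane proteins Serinc3 and Itm2b, at 3835 and 3753 CPM, Sdcbp (syntenin-1) at 3627 CPM, H3f3b (histone H3.3) at 3423 CPM and the nuclear non-coding RNA Malat1 at 3128 CPM. The translation factors Eif5a and Eef1a1 followed at 2883 and 2715 CPM, then Ubb (ubiquitin) at 2685 CPM, Ly6e, an interferon-induced surface protein, at 2432 CPM and Fth1 (ferritin heavy chain) at 2429 CPM. The last of the top 20 were Gpx1 (glutathione peroxidase) at 2262 CPM, Pfn1 (profilin) at 2069.5 CPM, Calm2 (calmodulin) at 2003 CPM, and the splicing regulators Hnrnpk at 1965 CPM and Srsf7 at 1904 CPM. Arhgdib was the next gene, at 1896 CPM. Ftl1, H2-K1, H3f3b, Eef1a1 and ribosomal protein genes have near-identical copies, so their counts are uncertain, and whether counting used strand is not given in the sources used here.

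Levels of different genes compare better per length. Divided by the length of the gene's merged exons (GENCODE M21), the order by median CPM per kilobase began with B2m, Ftl1, Car2, Ifitm3, a membrane protein of the antiviral response, and H2-K1. Malat1, a long transcript, stood at rank 157 on this scale and at rank 10 by CPM.

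B2m had 5318, 10174 and 5619.9 CPM in PLT-HSC libraries, 4042 to 6786 CPM (median 6133) in PEM-HSC, beside 6286, 4931, 5943 and 4128 CPM in MUL-HSC libraries. The classes overlapped, and PLT-HSC replicate 2 stood above every other library. Its CV of 0.257 was 0.155 without that library. Ly6e showed the same library at the top, with 2812, 5231 and 1906 CPM in PLT-HSC, 2245 to 3422 CPM (median 2789) in PEM-HSC, beside 2238, 2259.9, 2432 and 2242 CPM in MUL-HSC libraries. Its CV of 0.308, the highest of the top 20, was 0.165 without PLT-HSC replicate 2.

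Car2 had 8183, 7978 and 5259.5 CPM in PLT-HSC, 5537 to 7574 CPM (median 6439.6) in PEM-HSC, beside 4696, 5800.3, 4935 and 3939 CPM in MUL-HSC libraries. H2-K1 had 5147, 5437 and 4193 CPM in PLT-HSC, 4481 to 6596 CPM (median 5112) in PEM-HSC, beside 3339, 3342, 4436 and 3706 CPM in MUL-HSC libraries. For H2-K1 no PEM-HSC library overlapped a MUL-HSC library, while PLT-HSC and MUL-HSC overlapped. Between-class differences made up 52.4% of the variance of log2(CPM + 1) of Car2 and 59.5% of that of H2-K1, against a median of 15.4% over all members. Neither was called between classes by edgeR. Itm2b was the opposite case, with class means of 3792 ± 749 CPM in PLT-HSC (SD, n = 3), 3762 ± 261 CPM in PEM-HSC (n = 6) and 3786 ± 446 CPM in MUL-HSC (n = 4), and a between-class share of 0.0586%.

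**Figure D1:**
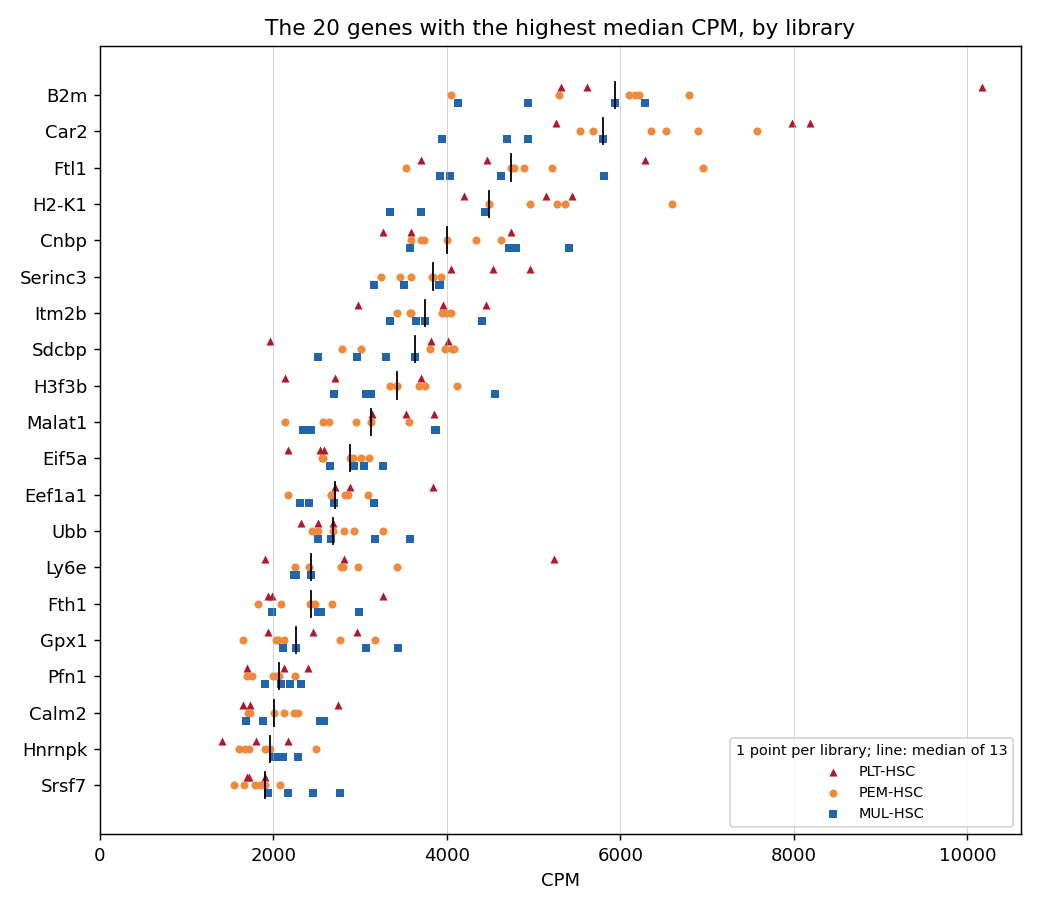
CPM of the 20 genes with the highest median CPM, one row per gene and one point per library, with PLT-HSC triangles above PEM-HSC circles and MUL-HSC squares and a line at the median of the 13 libraries. The classes overlap for most genes, and PLT-HSC replicate 2 stands apart for B2m (10174 CPM) and Ly6e (5231 CPM).

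Most members varied modestly, and the spread was lower at higher levels up to 1000 CPM. The median CV was 0.269, with quartiles of 0.207 and 0.359. Only 13 members had a CV under 0.1, 255 had a CV of 0.5 or more and 7 reached 1. The median CV was 0.339 for genes with a median of 50 to 100 CPM, 0.253 for 100 to 200 CPM, 0.207 for 200 to 500 CPM, 0.179 for 500 to 1000 CPM and 0.186 from 1000 CPM. Counting error alone would give a median CV of 0.0235 in the lowest of these ranges and 0.00512 in the highest, although reads without molecular identifiers are not independent molecules. Across the 4277 genes, Spearman's rho of CV with median CPM was -0.55, and with exon length over 4265 genes it was 0.378.

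ERCC spike-ins, synthetic RNAs added at fixed amounts, give a measure with no cells in it. Their CVs were taken on each spike-in's share of the spike-in counts of a library, and those of genes on CPM. The 4 spike-ins with a median of 1000 to 2000 counts had CVs of 0.195 to 0.333 (median 0.302), beside a median of 0.386 over the 1904 genes in the same range of counts. The 8 spike-ins with 100 to 1000 counts had a median CV of 0.754, beside 0.627 over 4851 genes. The median gene CV was thus above that of the spike-ins in the upper range and below it in the lower range, and the values overlapped in both. Because shares of spike-in counts have another base than CPM, this order does not rank gene spread against technical spread. Spike-ins took 0.0191% to 0.0612% of the gene counts, so few of them could be compared.

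**Figure D2:**
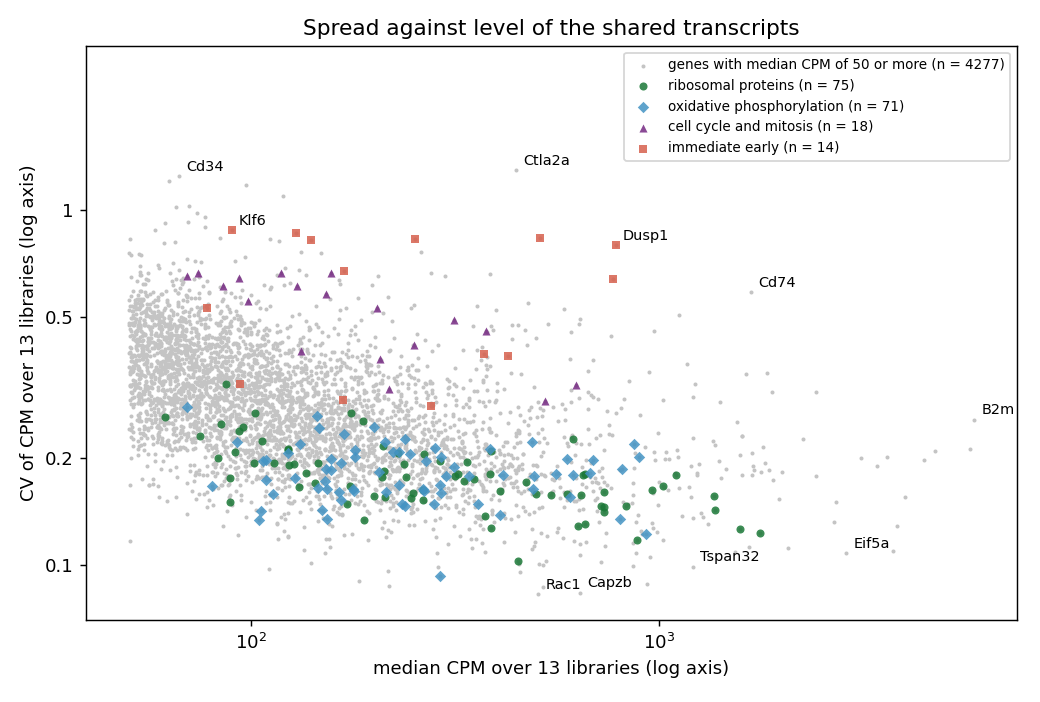
CV over 13 libraries against median CPM, both on log axes, with one grey point per member and 4 gene lists in colour. The cloud falls to the right, 74 of 75 ribosomal and 70 of 71 oxidative phosphorylation genes lie below the member median CV of 0.269, and all cell cycle and immediate early members lie above it.

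The 15 members with the lowest CV had median levels of 110.2 to 1209.7 CPM. Rac1, a small GTPase that directs actin assembly, ranked first with a CV of 0.0830. It had 518, 555 and 472 CPM in PLT-HSC, 467 to 534 CPM (median 505) in PEM-HSC, beside 547, 435, 421 and 469 CPM in MUL-HSC libraries. Capzb, the beta subunit of the actin capping protein, followed at a CV of 0.0838. Its values were 528, 639 and 553 CPM in PLT-HSC, 590.1 to 674 CPM (median 646) in PEM-HSC, beside 636, 716, 683 and 679 CPM in MUL-HSC libraries. Over the 13 libraries both genes stayed within a narrow band in which the classes overlapped.

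Hnrnpc, a nuclear RNA-binding protein, had 528, 560.2 and 519 CPM in PLT-HSC, 483 to 540.1 CPM (median 520.1) in PEM-HSC, beside 547, 462, 480.1 and 394 CPM in MUL-HSC libraries. Its CV of 0.0868 was 0.0568 without MUL-HSC replicate 4, the lowest library. Tfg, which acts in export from the endoplasmic reticulum, had 246, 212 and 207 CPM in PLT-HSC, 185 to 239.9 CPM (median 224) in PEM-HSC, beside 199.6, 219, 217 and 252 CPM in MUL-HSC libraries. Its class means were 222 ± 21.1 CPM in PLT-HSC (SD, n = 3), 220.3 ± 20.7 CPM in PEM-HSC (n = 6) and 222 ± 21.8 CPM in MUL-HSC (n = 4), and its between-class share was 0.171%.

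The others, in order of CV from 0.0884 to 0.101, were Creg1 (a secreted glycoprotein), Mrfap1, Uqcrc2 (respiratory complex III), Acat1 (mitochondrial acetyl-CoA acetyltransferase), Morf4l1 (a chromatin reader), Sf3b4 (spliceosome), Pdrg1, Tspan32 (a tetraspanin of blood cells), Bsg (basigin), Gdi2 (a Rab regulator) and Eif4e (the cap-binding initiation factor). Cct6a, a chaperonin subunit, was next at 0.101. In each of the 15 genes, the highest library was 1.31 to 1.46 times the lowest. Pdrg1 rested most on 1 library, with a CV of 0.0991 that was 0.0605 without PLT-HSC replicate 2. The 17 commonly used reference genes that were members had a median CV of 0.187, with Ywhaz the steadiest at 0.124, and 16 lay below the member median of 0.269. The 15 genes above were picked from all members by this same CV, so they cannot be compared with the reference genes in steadiness.

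Promoters of steady genes are shown because the share of windows with an ETS motif differed between the ends of the CV ranking. RefSeq windows of 250 bases before to 50 after the start (build GRCm38.p6) were found for 84 of the 100 members with the lowest CV and 81.1% of all members. The motif CCGGAAG, a core of ETS factor sites, was searched on both strands, as were the CCAAT box, the TATA box TATAAA, the cyclic AMP response element TGACGTCA, the cell cycle homology region TTTGAA and the GC box GGGCGG, none of which contains another. CCGGAAG was in 28.6% of the windows of the 100 lowest-CV members, 22.2% of those of all members and 8.86% of all windows in the table. It was in 27.7% of windows in the 25% of members with the lowest CV and 16.8% in the 25% with the highest. For the 100 members with the highest median CPM the share of CCGGAAG was 13.6%, below that of all members. TATAAA was in 4.76% of windows of the 100 lowest-CV members, 7.34% of those of all members and 13.6% of all windows, and in 19.1% of the windows of the 100 members with the highest median CPM, of which 80 matched. The median number of CpG pairs per window was 24 for the 100 lowest-CV members, 21 for all members and 7 for all windows. A match is a run of letters, not a tested site. The windows of Hnrnpc (chromosome 14, 52104002 to 52104201, minus strand) and Tfg (chromosome 16, 56717431 to 56717630, minus strand) follow, from 180 bases before to 20 after the start, with CCAAT and CCGGAAG matches of either strand in capitals. They were chosen after values and matches were seen.
Hnrnpc: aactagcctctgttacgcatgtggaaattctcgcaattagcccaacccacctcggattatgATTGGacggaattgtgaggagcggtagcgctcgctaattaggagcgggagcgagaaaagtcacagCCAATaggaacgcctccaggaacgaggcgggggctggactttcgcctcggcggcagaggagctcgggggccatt
Tfg: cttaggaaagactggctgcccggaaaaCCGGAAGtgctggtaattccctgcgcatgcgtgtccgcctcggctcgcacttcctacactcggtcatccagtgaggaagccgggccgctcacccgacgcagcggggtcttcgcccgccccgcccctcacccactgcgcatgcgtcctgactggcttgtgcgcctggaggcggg
Hnrnpc holds 2 CCAAT matches, 1 on each strand, and Tfg holds 1 CCGGAAG match that begins 153 bases before the start.

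The 15 members with the highest CV had median levels of 58.0 to 445 CPM and differed from the steady set in that between-class differences took a median of 47.9% of their variance, against 14.7% for the 15 lowest. This CV includes the differences between classes, so the class values below describe how these genes came to rank there. Because each library holds 100 cells, fewer cells with a transcript and less RNA per cell cannot be told apart.

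A first group was high in MUL-HSC. Ctla2a, which encodes a cysteine protease inhibitor and has close paralogs, had the highest CV, 1.29. It had 112, 74.5 and 445 CPM in PLT-HSC, 164 to 521 CPM (median 345) in PEM-HSC, beside 1320.2, 3805, 1006 and 1182 CPM in MUL-HSC libraries. All 4 MUL-HSC libraries stood above all others, and the CV was 0.819 without MUL-HSC replicate 2. Cd34, a surface sialomucin that long-term mouse HSCs carry little of, had 41.7, 23.2 and 66.4 CPM in PLT-HSC, 21.7 to 108 CPM (median 33.2) in PEM-HSC, beside 555, 449, 90.9 and 379.8 CPM in MUL-HSC libraries. MUL-HSC replicate 3 overlapped PEM-HSC. Serpinb1a, an inhibitor of neutrophil proteases, had 7.55, 41.6 and 40.0 CPM in PLT-HSC, 46.3 to 194 CPM (median 68.6) in PEM-HSC, beside 413, 381, 200.04 and 169 CPM in MUL-HSC libraries, again with an overlap between PEM-HSC and MUL-HSC.

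A second group was low in MUL-HSC and included genes reported as higher in aged HSCs. PLT-HSC and PEM-HSC gave most of the 13 libraries, so a gene near 0 in MUL-HSC could still pass the median filter. A gene near 0 outside MUL-HSC could not, so the sizes of these groups cannot be compared. Clu, which encodes the secreted chaperone clusterin, had 311, 602 and 178 CPM in PLT-HSC, 30.9 to 589.8 CPM (median 115) in PEM-HSC, beside 0, 0, 14.5 and 44.3 CPM in MUL-HSC libraries. All 3 PLT-HSC libraries stood above all MUL-HSC libraries, and PEM-HSC overlapped both. Of the 4277 members, 333 had no overlap between PLT-HSC and MUL-HSC. Such a separation on its own therefore does not single out a gene, here or elsewhere in the text. A count of 0 allows up to 0.135 CPM in MUL-HSC replicate 1 and 0.116 CPM in MUL-HSC replicate 2, for counting error only. Nrg4, a ligand of the ErbB4 receptor, had 202, 312 and 157 CPM in PLT-HSC, 16.0 to 132 CPM (median 77.2) in PEM-HSC, beside 3.47, 9.46, 9.77 and 37.98 CPM in MUL-HSC libraries. All 3 PLT-HSC libraries stood above all others for Nrg4. Ramp2, a receptor activity-modifying protein, had 175, 247 and 43.6 CPM in PLT-HSC, 39.0 to 218 CPM (median 110.5) in PEM-HSC, beside 0, 0, 28.4 and 11.9 CPM in MUL-HSC libraries.

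Gkn3, Sbspon, Plk2 and Gimap4 also averaged lower in MUL-HSC. Gkn3 (gastrokine 3) averaged 148 ± 97.5 CPM in PLT-HSC, 122 ± 135 CPM in PEM-HSC and 8.93 ± 10.6 CPM in MUL-HSC (SD, n = 3, 6 and 4), and its range in PEM-HSC alone was 19.1 to 381 CPM. Sbspon, a secreted matrix protein, was at 0 in MUL-HSC replicates 1 and 2 and at 119.7 CPM in MUL-HSC replicate 3, which lay within the range of the other classes. Plk2, a polo-like kinase, had 536, 70.4 and 61.9 CPM in PLT-HSC, so its high mean there rested on replicate 1. Gimap4, a GTPase of lymphocytes, had 324, 297 and 65.5 CPM in PLT-HSC, 17.7 to 128 CPM (median 100.3) in PEM-HSC, beside 0, 28.4, 36.2 and 39.3 CPM in MUL-HSC libraries.

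Between-class differences took 6.50% (Spc25) to 27.1% (Klf6) of the variance of the remaining 5, against 45.9% (Gimap4) to 74.1% (Serpinb1a) in the groups above. Genes of those groups varied within classes too. The CV pooled within classes was 1.13 for Gkn3, beside 0.974 for Pbk. Pbk, a mitotic kinase, had 0.0345, 13.8 and 213 CPM in PLT-HSC, 17.6 to 216 CPM (median 57.2) in PEM-HSC, beside 199.98, 271, 0 and 114 CPM in MUL-HSC libraries. Spc25, a subunit of the Ndc80 kinetochore complex, had 4.93, 13.4 and 159.9 CPM in PLT-HSC, 26.3 to 200.4 CPM (median 50.1) in PEM-HSC, beside 171, 151, 0 and 67.0 CPM in MUL-HSC libraries. In PLT-HSC and MUL-HSC the same libraries were low for both genes: PLT-HSC replicates 1 and 2, and MUL-HSC replicate 3. Cap1, an actin-binding protein, had 119.7, 37.3 and 63.8 CPM in PLT-HSC, 3.06 to 262 CPM (median 50.6) in PEM-HSC, beside 77.0, 108, 13.1 and 147 CPM in MUL-HSC libraries, with no class apart.

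Klf6 and Egr1 are immediate early transcription factors and completed the set. Klf6 had 431, 103 and 76.4 CPM in PLT-HSC, 38.8 to 101 CPM (median 74.4) in PEM-HSC, beside 49.4, 181, 92.0 and 130.3 CPM in MUL-HSC libraries. Its CV of 0.877 was 0.424 without PLT-HSC replicate 1. Egr1 had 538, 38.5 and 129 CPM in PLT-HSC, 66.3 to 232 CPM (median 117) in PEM-HSC, beside 0.901, 99.5, 176 and 197 CPM in MUL-HSC libraries, and its CV of 0.865 was 0.592 without PLT-HSC replicate 1. Kcnq1ot1, an imprinted non-coding RNA, was next in rank at 0.837.

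**Figure D3:**
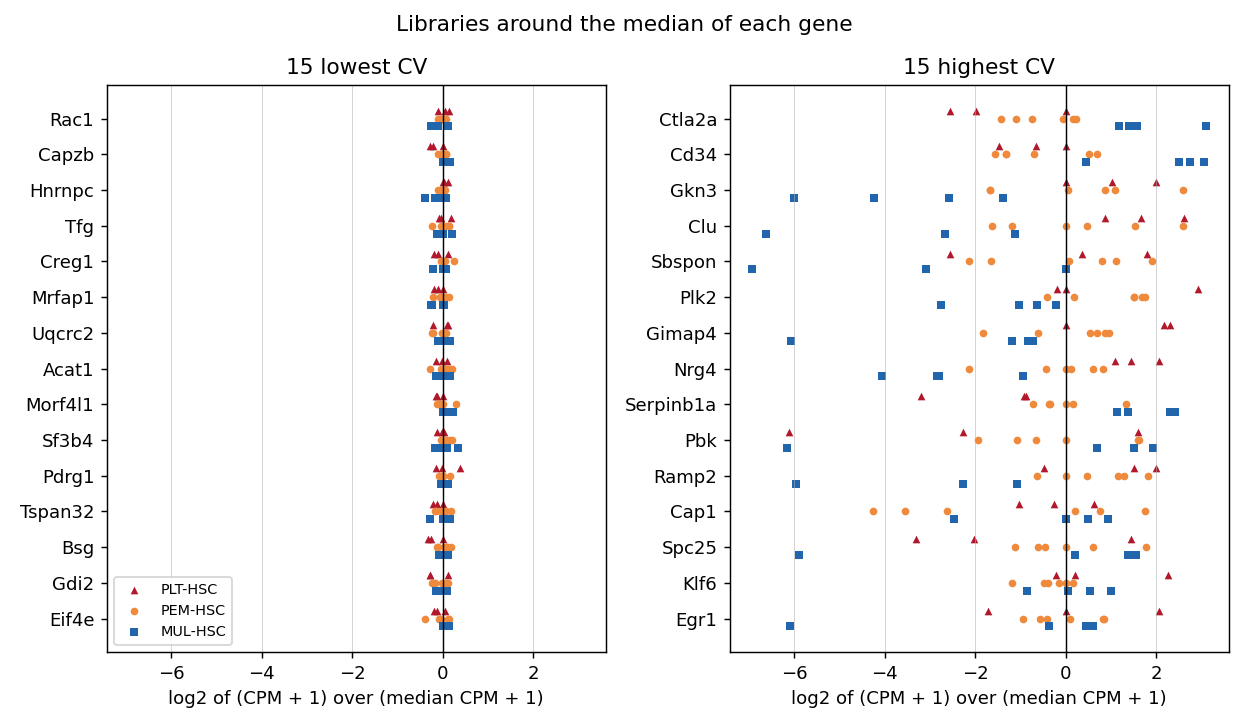
Log2 of (CPM + 1) over (median CPM + 1) in each library for the 15 members with the lowest CV (left) and the 15 with the highest (right), on the same axis, with PLT-HSC triangles above PEM-HSC circles and MUL-HSC squares. Points of the steady genes lie close to 0, MUL-HSC squares lie to the right for Ctla2a, Cd34 and Serpinb1a and to the left for Gkn3, Clu, Nrg4 and Ramp2, and Pbk and Spc25 spread within every class.

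Gene lists differed in CV. Of 75 ribosomal protein genes among the members (85 in the table), 74 had a CV below the member median, none was among the 100 highest, and the median CV was 0.176. Rpl5 was the steadiest at 0.102 and Rps28 the least at 0.325, or 0.215 without PLT-HSC replicate 1. Of 71 nuclear-encoded subunits of oxidative phosphorylation (83 in the table), 70 lay below the member median, with a median CV of 0.180. All 26 translation factors and partners were members, with a median CV of 0.168. The median CV was 0.171 for 26 actin cytoskeleton genes, 0.186 for 33 proteasome subunits, 0.212 for 26 splicing factors and 0.213 for 25 chaperones. These lists also stand at higher levels than most members, with median levels of 230.3 to 575 CPM against 116 CPM.

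Antigen presentation split by pathway. The 12 MHC class I genes that were members had a median CV of 0.214, from 0.163 for Psme2, a proteasome activator subunit, to 0.444 for Nlrc5, the class I transactivator. The 6 MHC class II members had a median CV of 0.366. Cd74, the invariant chain, was the most variable of them at 0.587. It had 2275, 3420.1 and 479 CPM in PLT-HSC, 1504 to 4263 CPM (median 2375) in PEM-HSC, beside 324, 1427, 1176 and 1059 CPM in MUL-HSC libraries. All 6 PEM-HSC libraries stood above all MUL-HSC libraries, and PLT-HSC replicate 3 lay among the MUL-HSC values. H2-DMa, which loads peptides on class II, was steady at a CV of 0.181.

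Stem cell genes were less steady than the machinery. The 35 HSC identity genes that were members had a median CV of 0.435, and 5 lay below the member median. Angpt1, a ligand of the Tie2 receptor, was the steadiest of them at 0.123, and Lmo2, a transcriptional adaptor of blood formation, had a CV of 0.186 at a median of 1858 CPM. The 23 members reported as higher in aged HSCs (37 in the table) had a median CV of 0.560, 11 were among the 100 highest, and between-class differences took a median of 53.6% of their variance. The lists were chosen with earlier results of these data known, and the median filter admits genes that are low in MUL-HSC alone. These values are therefore descriptions only. Their list summed to 7414, 7374 and 3658 CPM in PLT-HSC, 3018 to 6873 CPM in PEM-HSC, beside 876, 1348, 3189 and 2472 CPM in MUL-HSC libraries. MUL-HSC replicate 1 was lowest for 18 of the 23, and without it the list had 24 genes over 50 CPM, with a median CV of 0.497 and a median between-class share of 41.4%. The 34 interferon response members had a median CV of 0.357, from 0.156 for Ifitm2 to 0.701 for Gbp6, and the 16 megakaryocyte and platelet members had one of 0.405, from 0.175 for Cd9 to 0.809 for Vwf.

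**Figure D4:**
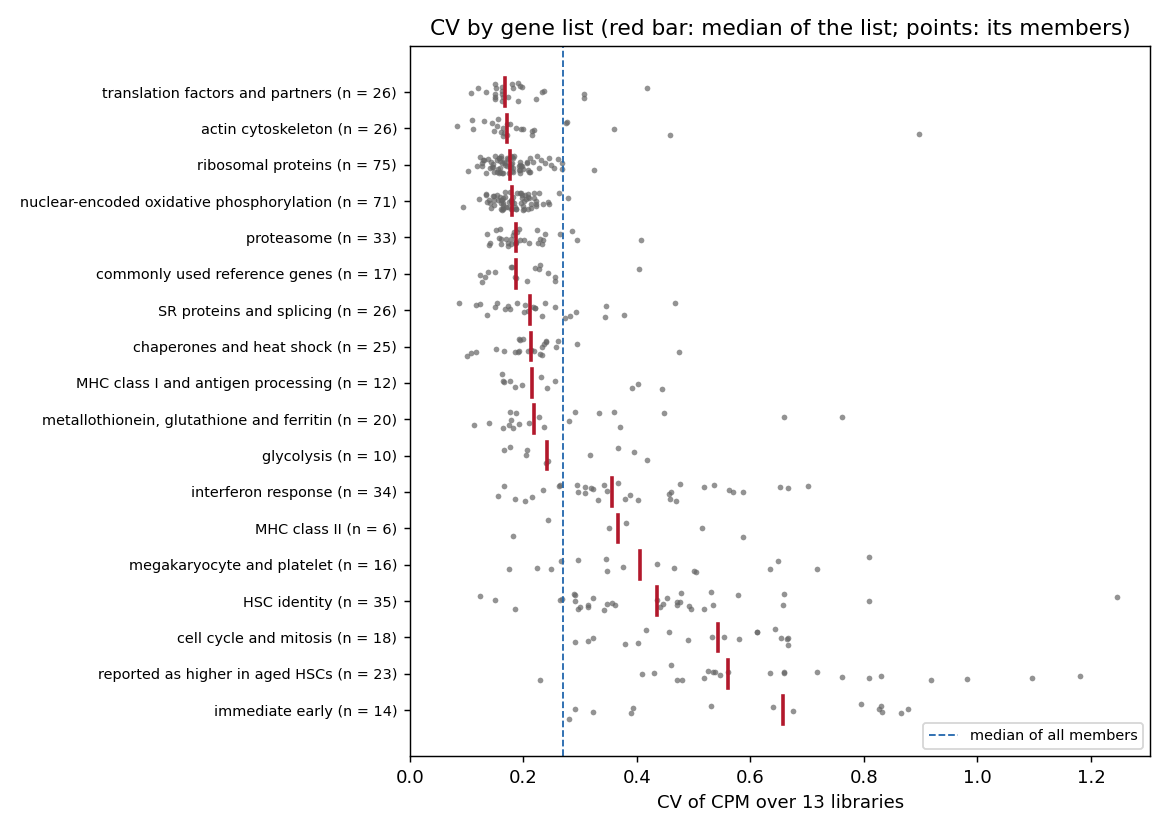
CV over 13 libraries of the members of 18 gene lists, one point per gene, with a red bar at the median of each list and a dashed line at the member median of 0.269. Lists of core machinery lie left of the line, at medians of 0.168 to 0.242, and the interferon, MHC class II, platelet, stem cell, cell cycle and immediate early lists lie right of it, at medians of 0.357 to 0.658.

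Immediate early genes had the highest median CV of the lists with 2 or more members, a rank that rested on PLT-HSC replicate 1. All 14 that were members lay above the member median, 8 were among the 100 highest, and the median CV was 0.658. Dusp1, a phosphatase that ends MAP kinase signalling, had 2401, 172 and 382 CPM in PLT-HSC, 338 to 1429 CPM (median 616) in PEM-HSC, beside 108, 1626, 800.5 and 926 CPM in MUL-HSC libraries. Fos, a subunit of AP-1 singled out after its values were seen, had 1781, 78.0 and 468 CPM in PLT-HSC, 193 to 893 CPM (median 457) in PEM-HSC, beside 24.6, 588, 510.2 and 638 CPM in MUL-HSC libraries. The highest library was PLT-HSC replicate 1 and the lowest MUL-HSC replicate 1 for both genes, and over the list these 2 libraries were highest for 10 and lowest for 8 of the 14 members. Nfkbia, an inhibitor of NF-kB, was the steadiest at 0.281, with 302, 311 and 276 CPM in PLT-HSC, 229 to 373 CPM (median 315) in PEM-HSC, beside 163, 151, 189 and 192 CPM in MUL-HSC libraries, all MUL-HSC libraries below all others. Without PLT-HSC replicate 1 the median CV of the list was 0.424, below the 0.543 of cell cycle genes and the 0.565 of genes reported as higher in aged HSCs, and 6 members were among the 100 highest. Without PLT-HSC replicate 1 and MUL-HSC replicate 1 it was 0.409, with 2 among the 100 highest, and the median between-class share of the list was 34.7%, against 7.62% over all 13 libraries. Over all members that share was 17.2% without both libraries and 15.4% over all 13.

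Cell cycle genes were variable too. The 18 that were members (45 in the table) had a median CV of 0.543, none lay below the member median, and 7 were among the 100 highest. Their list summed to 1951, 2871 and 6891 CPM in PLT-HSC, 3272 to 7621 CPM in PEM-HSC, beside 7770, 7079, 2902 and 5716 CPM in MUL-HSC libraries. PLT-HSC replicate 1 was lowest for 12 of the 18 members and MUL-HSC replicate 1 highest for 8, while high and low sums occurred in every class. Ccnb2 (cyclin B2), also singled out after its values were seen, had 10.2, 37.6 and 261 CPM in PLT-HSC, 31.0 to 340.3 CPM (median 211) in PEM-HSC, beside 157, 317, 84.5 and 147 CPM in MUL-HSC libraries. Between-class differences took a median of 15.6% of the variance of these members, near the 15.4% of all members, and 7.62% for the immediate early members. Without PLT-HSC replicate 1 and MUL-HSC replicate 1 the median CV of the cell cycle list was 0.506.

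Promoter windows of genes of these lists are shown because both lists stood high in CV; whether their members vary together was not tested. For the cell cycle list 15 of 18 members matched, with 16 windows. CCAAT, the letters bound by NF-Y, was in 81.25% of these windows, against 37.997% of windows of all members and 37.4% of all windows. TTTGAA, a form of the cell cycle genes homology region, was in 25%, 12.5% and 17.9% of the same sets of windows. The GC box GGGCGG was in 93.75%, 63.1% and 35.7% of them. Fewer than 80% of the immediate early members and of the 100 highest-CV members matched (78.6% and 77.0%), so shares for them are void. The windows of Fos (chromosome 12, 85473710 to 85473909, plus strand) and Dusp1 (chromosome 17, 26508453 to 26508652, minus strand) have TATAAA and TGACGTCA matches in capitals. Those of Spc25 (chromosome 2, 69206194 to 69206393, minus strand) and Ccnb2 (chromosome 9, 70421535 to 70421734, minus strand) have CCAAT and TTTGAA matches in capitals. All 4 come from RefSeq on GRCm38.p6, run from 180 bases before to 20 after the start, and were chosen after values and matches were seen.
Fos: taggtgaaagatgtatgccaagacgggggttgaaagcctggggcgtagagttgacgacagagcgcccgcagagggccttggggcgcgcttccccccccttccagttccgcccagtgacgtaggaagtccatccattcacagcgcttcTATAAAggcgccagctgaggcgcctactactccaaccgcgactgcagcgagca
Dusp1: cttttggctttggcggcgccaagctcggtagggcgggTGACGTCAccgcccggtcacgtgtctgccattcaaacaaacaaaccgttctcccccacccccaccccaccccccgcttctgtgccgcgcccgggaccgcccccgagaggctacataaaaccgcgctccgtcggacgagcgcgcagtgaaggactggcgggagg
Spc25: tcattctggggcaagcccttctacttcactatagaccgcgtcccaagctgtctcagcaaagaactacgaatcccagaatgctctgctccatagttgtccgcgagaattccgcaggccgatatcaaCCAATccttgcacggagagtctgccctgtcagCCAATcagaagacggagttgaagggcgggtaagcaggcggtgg
Ccnb2: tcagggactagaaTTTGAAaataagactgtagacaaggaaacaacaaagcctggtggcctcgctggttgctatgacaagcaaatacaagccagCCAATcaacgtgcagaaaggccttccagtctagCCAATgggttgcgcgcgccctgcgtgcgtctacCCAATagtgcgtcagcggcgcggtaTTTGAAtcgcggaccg
Fos has TATAAA at 33 bases before the start, and Dusp1 has TGACGTCA, the full cyclic AMP response element, at 143 bases before it. Spc25 holds 2 CCAAT matches, and Ccnb2 holds 3 together with 2 TTTGAA matches.

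**Figure D5:**
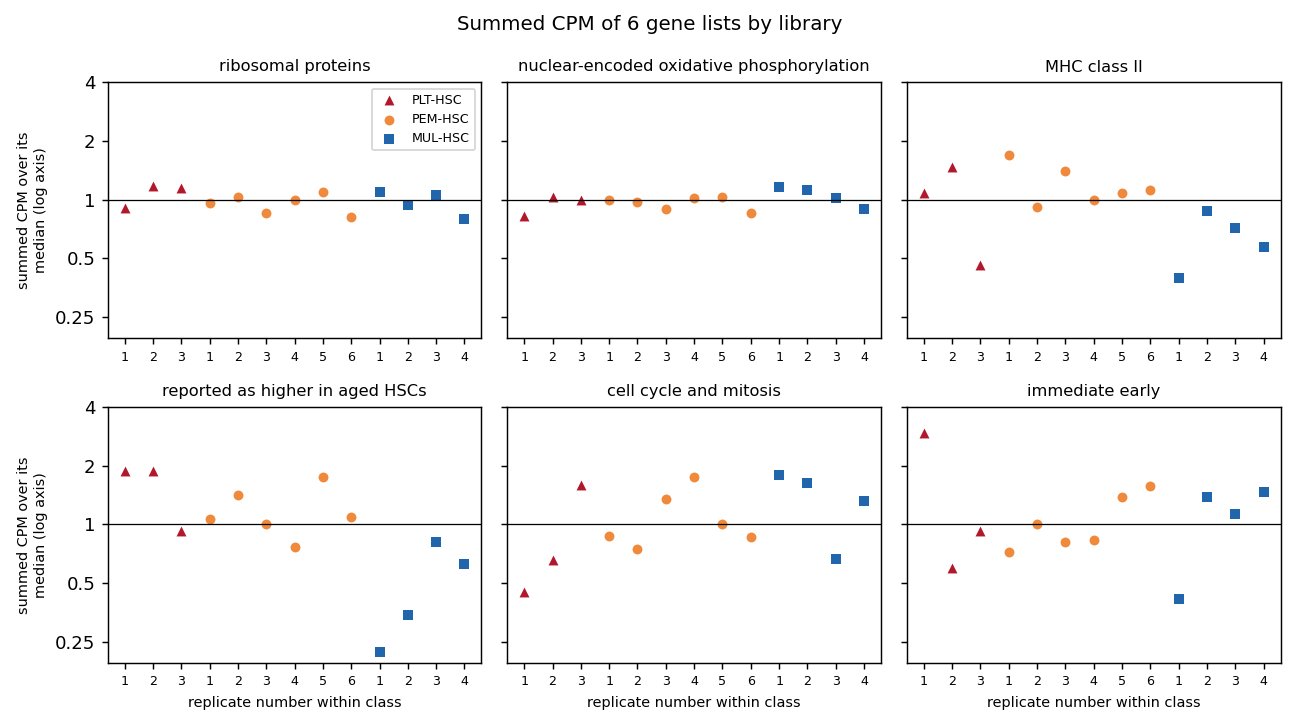
Summed CPM of 6 gene lists in each library, divided by the median of the 13 libraries (log axis), with PLT-HSC, PEM-HSC and MUL-HSC from left to right. Ribosomal and oxidative phosphorylation sums stay near 1. The MHC class II sums are low in MUL-HSC libraries and in PLT-HSC replicate 3 (1968 CPM). Sums of genes reported as higher in aged HSCs are low in MUL-HSC libraries, though PEM-HSC replicate 4 (3018 CPM) lies below MUL-HSC replicate 3 (3189 CPM). Immediate early sums are highest in PLT-HSC replicate 1 (12839 CPM) and lowest in MUL-HSC replicate 1 (1801 CPM).

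Within classes, the members were least steady in PLT-HSC by median CV, a difference that was not tested. The median CV was 0.269 over the 3 PLT-HSC, 0.238 over the 6 PEM-HSC and 0.241 over the 4 MUL-HSC libraries, and 0.263 when pooled within classes, against 0.269 over all 13. PLT-HSC was highest in every range of level above, with 0.226 against 0.150 in PEM-HSC and 0.160 in MUL-HSC at 500 to 1000 CPM. These CVs rest on unequal and small numbers of libraries. Since the classes hold separate libraries, a gene's CV in one is a fresh measurement in another. Spearman's rho of CV across the 4277 genes was 0.350 between PLT-HSC and PEM-HSC, 0.337 between PLT-HSC and MUL-HSC and 0.414 between PEM-HSC and MUL-HSC, with level and protocol shared between them. Of the 100 highest-CV members of each class, 2.34% of all members, PLT-HSC and PEM-HSC shared 26, PLT-HSC and MUL-HSC 15, and PEM-HSC and MUL-HSC 14. The 6 in all 3 lists were Dusp1, Junb (an AP-1 subunit), Pbk, Sbspon, Spc25 and Tacc1, a spindle-associated protein. The lists of the 100 lowest shared 1, 3 and 8 genes in the same order, and none was in all 3.

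Genes ranked in PEM-HSC alone were then read in the other classes. The 100 members with the lowest CV in PEM-HSC had median CVs of 0.184 in PLT-HSC and 0.167 in MUL-HSC, against 0.272 and 0.242 for the remaining members, and 81 and 71 of the 100 lay below the median of the class. The 100 with the highest CV in PEM-HSC had median CVs of 0.540 in PLT-HSC and 0.456 in MUL-HSC, with 83 and 84 above the median of the class. At matched level the order was the same: for members of 200 to 500 CPM, the 25% with the highest CV in PEM-HSC had median CVs of 0.296 in PLT-HSC and 0.241 in MUL-HSC, and the 25% with the lowest had 0.197 and 0.170. Single genes could still change places. Arl4a, a small GTPase, was the steadiest member in PEM-HSC, at 255 to 284 CPM (CV 0.0378), but had 565, 264 and 161 CPM in PLT-HSC, and 247, 362, 311 and 231 CPM in MUL-HSC libraries. Rac1, Capzb and Hnrnpc were among the 5 steadiest in PEM-HSC and also among the 15 steadiest over all libraries. Hbp1, a transcriptional repressor, completed the 5, with 375 to 435 CPM in PEM-HSC. The 5 most variable in PEM-HSC were Cap1, Gkn3, Clu, Pbk and Slfn2, a Schlafen family protein, which ranged from 6.94 to 127 CPM there.

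The number of members called between classes depended on the tool. In edgeR's quasi-likelihood test over the 12536 genes that passed the low-count filter, with Benjamini-Hochberg adjustment at 0.05, 1 gene was called between the 3 classes (0.00798% of genes tested), 6 in PLT-HSC against MUL-HSC (0.0479%), 1 in PEM-HSC against MUL-HSC (0.00798%) and none in PLT-HSC against PEM-HSC (0%). The counts at an unadjusted p under 0.05 were 649 (5.18%), 924 (7.37%), 744 (5.93%) and 467 (3.73%), and DESeq2, run on 15785 genes without that filter, called 82, 286, 224 and 133. All 4277 members were tested. Of the 4277 members, edgeR called 1 between the 3 classes, 4 in PLT-HSC against MUL-HSC and 1 in PEM-HSC against MUL-HSC. Beside them stood 1, 6 and 1 of all 12536 genes. With DESeq2, called members numbered 40, 65 and 41 of 4277 in these tests and 14 of 4277 in PLT-HSC against PEM-HSC. Over all 15785 genes the counts were 82, 286, 224 and 133 in the same order. In PLT-HSC against MUL-HSC, edgeR called 16 members when fitted on members alone and 23 without PLT-HSC replicate 3. Both comparisons with MUL-HSC share the MUL-HSC libraries.

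Vwf, the clotting protein whose expression marked the founder cells, was called in both. It had 105, 104 and 200.02 CPM in PLT-HSC, 32.4 to 113 CPM (median 81.3) in PEM-HSC, beside 4.91, 9.42, 13.4 and 12.8 CPM in MUL-HSC libraries, with no overlap of either class with MUL-HSC. The log2 fold change was 3.72 (SE 0.45, edgeR adjusted p = 0.0041) in PLT-HSC and 2.94 (SE 0.41, edgeR adjusted p = 0.0234) in PEM-HSC against MUL-HSC. Between the 3 classes its edgeR adjusted p was 0.0176. Otos, which encodes otospiralin, had 24.7, 10.7 and 41.6 CPM in PLT-HSC, 44.3 to 83.3 CPM (median 72.3) in PEM-HSC, beside 158, 129, 114 and 117 CPM in MUL-HSC libraries, and the 3 classes did not overlap. It fell by 2.40 on the log2 scale in PLT-HSC against MUL-HSC (SE 0.39, edgeR adjusted p = 0.0360). Phf11d, a PHD finger gene with close copies in the mouse genome, had 284, 351 and 156 CPM in PLT-HSC, 133 to 242 CPM (median 182) in PEM-HSC, beside 66.3, 38.8, 84.7 and 57.5 CPM in MUL-HSC libraries. PLT-HSC exceeded MUL-HSC by 2.13 on the log2 scale (SE 0.33, edgeR adjusted p = 0.0289). Mef2c, a MADS-box transcription factor, was the steadiest of the called members (CV 0.388). It had 435, 341 and 368 CPM in PLT-HSC, 171 to 312 CPM (median 253) in PEM-HSC, beside 148, 188, 128 and 136 CPM in MUL-HSC libraries, and PLT-HSC exceeded MUL-HSC by 1.33 on the log2 scale (SE 0.23, edgeR adjusted p = 0.0487). In PLT-HSC against MUL-HSC the calls of Mef2c, Otos, Phf11d and Vwf held under 8, 9, 14 and 20 of 21 alternatives, and in PEM-HSC against MUL-HSC that of Vwf held under 14.

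None of the 100 members with the highest median CPM was called by edgeR in any of the 4 tests. At an unadjusted p under 0.05 there were 12, 19, 12 and 4 of these 100 in the same order of tests, against 306, 395, 315 and 190 of all 4277 members. The 15 members with the lowest CV had 0 in each test, which their ranking by small spread favours. Of 28 gene lists, those with a member called by edgeR were HSC identity, aged HSC, and megakaryocyte and platelet genes through Vwf, and interferon genes through Phf11d. HSC identity also held Ctnnal1, called in PLT-HSC against MUL-HSC but below the level of the members. A p that misses the threshold does not show that classes express a gene alike.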

How the data were processed

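RNA-seq counts per gene symbol were deposited by the authors for 13 libraries of 100 cells each; per the labels' protocols, polyadenylated RNA was amplified by Smart-seq+ and made into Nextera XT libraries without molecular identifiers. The submitters' processing notes name Trimmomatic, FastQC, STAR, featureCounts and the build mm9, with versions not given in the sources used here. ERCC rows (92) were removed and CPM computed on column totals. CV is SD over mean of CPM (for spike-ins, of the share of spike-in counts), and between-class shares are of the variance of log2(CPM + 1). Classes were compared with edgeR 4.0.16 (quasi-likelihood, robust, TMM, filterByExpr) in R 4.3.3, fitted over all 13 libraries without a block. DESeq2 1.42.0 served as an alternative. Only edgeR's test over all classes together was tried on simulated data, not its pairwise tests or DESeq2. Symbols were matched to GENCODE M21 for exon length and to RefSeq windows of GRCm38.p6, so no coordinates come from the counts. Named genes were the top 20 by level, the 15 at each end of CV, the 5 at each end in PEM-HSC, list members of highest level or extreme CV, and called members. Members and lists were chosen with earlier results of these data known. Since the labels name no separate recipients, p-values cover the spread among libraries alone, which may be technical. Some withheld items are not reported here.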

Additional observations from a re-analysis of the deposited data

Results flagged for a closer look

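In classes of 4 or 6 libraries, 16 of 248 combinations of named gene and class (6.45%) had 1 library far from the rest by Dixon's criterion. Chance gives about 5% for genes chosen without regard to their spread. Many named genes were chosen by their CV in these same libraries, so the shares cannot be compared. MUL-HSC replicate 3 held 4 of them. It was highest among MUL-HSC libraries for Ly6e (2432 CPM, others 2238 to 2259.9), Ifitm3 (2240.5 CPM, others 1321 to 1447), Sbspon (119.7 CPM, others 0 to 13.3) and Klrb1c, an NK cell receptor (30.9 CPM, others 0 to 0.0483). MUL-HSC replicate 2 was highest for Ctla2a (3805 CPM, others 1006 to 1320.2), and MUL-HSC replicate 4 was lowest for Tmsb4x, thymosin beta 4 (1260.1 CPM, others 1798 to 1870.5).

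Among PEM-HSC libraries, replicate 4 was highest for Spc25 (200.4 CPM, others 26.3 to 88.5), H2afx, the histone variant H2A.X (257 CPM, others 82.9 to 139), and Serpinb1a (194 CPM, others 46.3 to 86.0). Replicate 1 was highest for Creg1 (1115 CPM, others 906 to 961) and Morf4l1 (265 CPM, others 197 to 218). Replicate 6 was highest for Pdrg1 (319 CPM, others 271 to 287) and lowest for Ppia, cyclophilin A (883 CPM, others 1134 to 1261). Replicate 2 was highest for Rap1b, a small GTPase (1291 CPM, others 463 to 756), replicate 3 for the macrophage marker Cd68 (239.8 CPM, others 20.6 to 79.6) and replicate 5 for Gkn3 (381 CPM, others 19.1 to 135).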

How the results depend on the processing

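A threshold of 20 CPM gave 6828 members with a median CV of 0.340, and one of 100 CPM gave 2488 with 0.229. Leaving out 1 library gave 4258 to 4320 members, a median CV of 0.265 to 0.273, 17.0% to 17.2% of counts in the top 100 genes and a median between-class share of 15.1% to 19.2%. Of the 15 lowest-CV genes, 9 were kept with TMM library sizes, 3 with the median absolute deviation over the median, 5 with the CV pooled within classes and 8 to 14 without 1 library. Of the 15 highest, 8 were kept with the median absolute deviation, 8 with the SD of log2(CPM + 1), 9 with the pooled CV and 10 to 14 without 1 library. With both PLT-HSC 1 and MUL-HSC 1 left out, a setting chosen after seeing the data, 12 of the 15 highest and 4 of the 15 lowest were kept. Of 1320 CVs of 88 named genes under alternatives, 38 moved by more than the spread.

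Counts of calls depended on the setting. Between the 3 classes, where the main count was 1, they were 3 with no filter, 5 over members alone, 82 with DESeq2 (which was run on 15785 genes, so the filter changed too), and 0 to 23 without 1 library. The lowest came without PLT-HSC replicate 2 or MUL-HSC replicates 1 or 4, and the highest when PLT-HSC replicate 3 was dropped. Counts were 4 without PEM-HSC replicate 4 or MUL-HSC replicate 3, and 2 when PLT-HSC replicate 1 or PEM-HSC replicate 2 or 3 was dropped. For PLT-HSC against MUL-HSC, where the main count was 6, they were 11, 16 and 286 in the same order, and 1 to 37 without 1 library. The count was 37 without PLT-HSC replicate 3, 21 without MUL-HSC replicate 3, 3 without MUL-HSC replicate 4 or PEM-HSC replicates 1, 3 or 6, 2 without PLT-HSC replicate 1 or MUL-HSC replicate 2, and 1 when PLT-HSC replicate 2 or MUL-HSC replicate 1 was dropped. Leaving out MUL-HSC 1 and 2 together, chosen after seeing the data, gave 1. For PEM-HSC against MUL-HSC, where the main count was 1, it was 2 over members alone, 224 with DESeq2 and 0 to 4 without 1 library. It was 4 without PLT-HSC replicate 3 or MUL-HSC replicate 3, 2 without PEM-HSC replicates 2 or 3, and 0 without PLT-HSC replicate 2, PEM-HSC replicate 5 or MUL-HSC replicates 1 or 4. For PLT-HSC against PEM-HSC, where the main count was 0, it was 133 with DESeq2 and 0 to 2 without 1 library, namely 1 when PLT-HSC replicate 1 was dropped and 2 when PLT-HSC replicate 3 was. The cause was not tested.

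Between classes, correlations of same-numbered libraries, taken on deviations from the class mean, ran from -0.364 to 0.153. Differently numbered libraries were not compared in this way, so whether replicate numbers pair the libraries is not settled. A fit with the replicate number as a block called 0 genes between the 3 classes, 2 in PLT-HSC against MUL-HSC and 0 in PEM-HSC against MUL-HSC. Libraries of 100 cells limit low genes most: 3 counts correspond to 0.0725 to 0.183 CPM, for counting error only.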

Other observations

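Some members of steady lists had a CV that rested on 1 library. Eef2, the elongation factor that moves the ribosome, had 279, 167 and 724 CPM in PLT-HSC, 269 to 346 CPM (median 315) in PEM-HSC, beside 283, 214, 250.4 and 342 CPM in MUL-HSC libraries. Its CV of 0.418 was 0.193 without PLT-HSC replicate 3. Ddx17, an RNA helicase of the splicing list, had a CV of 0.468 that was 0.305 without the same library. Only 20 members (0.468%) were at 0 in any library, and 14 of them were among the 100 with the highest CV.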
